A study of Bos taurus with 4 samples.

Results

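The chaperonin containing TCP1 (CCT, also called TRiC) was examined in bovine skeletal muscle through the 8 genes that encode its ring subunits, *TCP1*, *CCT2*, *CCT3*, *CCT4*, *CCT5*, *CCT6A*, *CCT7* and *CCT8*. Its probes were all non-control probes whose reference accession belongs to 1 of these genes, which gave 22 of the 43653 probes and 8 of the 11054 named genes on the array. *CCT6A* had 5 probes, *TCP1* 4, *CCT4*, *CCT5* and *CCT8* 3 each, *CCT7* 2, and *CCT2* and *CCT3* 1 each. All 22 probes were well above background in both channels on all 4 arrays, none was saturated, and all entered the test.

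CCT is a barrel of stacked rings in the cytosol, each ring built from 1 copy of every subunit in a fixed order. It encloses newly made polypeptides and uses ATP to close a lid over them, and it is the folding machine on which actin and tubulin depend, together with many proteins of the beta-propeller fold. Since every subunit has its own place in the ring, the subunits are usually considered as one complex, and in muscle its clients include the actin of the thin filament.

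The study compared Hereford bulls (HER, a beef breed) with Holstein-Friesian bulls (HF, a dairy breed that served as reference), all 15 months old, in the semitendinosus, a muscle of the hind limb. The RNA, of high integrity only, came from the middle of the muscle belly, with visible fat and connective tissue trimmed away. RNA of 1 HER bull and 1 HF bull was hybridised to each of 4 dual-colour Agilent arrays on 1 slide, so that each breed was represented by 4 bulls. The comparison asked which transcripts differ between beef and dairy muscle. Limousin arrays of the study were not analysed here. No treatment or genetic modification was applied to either breed.

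All signed values are log2(Cy5/Cy3) after loess normalization, where a negative value is a lower signal in the Cy5 sample. By the dye labels of all 4 arrays Cy5 was HF and Cy3 was HER, although a remark in the labels speaks of exchanged dyes. The study's tables, in which *CCT6A* and *CCT7* are listed from these bulls, run the other way, with Cy5 as HER. The study's qPCR, which does not use the array dyes, found *hspa8* lower in both beef breeds than in HF. After loess all 6 *HSPA8* probes here were lower in Cy5, which is the direction of the study's tables for this 1 gene. As the labels say otherwise, the breed that a lower value belongs to is not settled here. With 1 dye orientation throughout, breed and dye cannot be told apart. In muscle pieces that hold several cell types, fewer cells of a type and less RNA per cell cannot be told apart either.

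The median signal of the arrays was 129 to 160.5 in Cy5 and 77 to 138 in Cy3, over a background of 37 to 41. Markers of muscle fibres had a summed signal of 1372900 to 1839850 per bull, above every other marker list, and 9 of 10 were tested. Among lists for other cell types, the 6 fibroblast markers summed to 32605.9 to 60793.3 in the Cy5 bulls and 57307.7 to 104838 in the Cy3 bulls. The median log2 ratio of that list was -1.05, and its collagen genes *COL1A1* and *COL3A1* passed the test at -2.05 and -1.68. *COL1A2* and *LUM* were at -1.34 and -0.77, while *DCN* and *PDGFRA* were at 0.42 and 0.49, and none of these was called. In the other marker lists *CNN1* of smooth muscle was called at -0.79 and *CFD* of adipocytes at 1.49. Neither list moved as a whole. The other adipocyte markers *FABP4*, *PLIN1* and *LEP* were at -1.19, -0.26 and 0.02. For smooth muscle *ACTG2*, *SMTN* and *MYH11* were at -0.45, -0.20 and 0.40, and none of these was called. All 6 fibroblast markers were well above background in every bull, and the part of other cell types in the CCT values was not tested.

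Across the CCT subunits the Cy5 signal was mostly below the Cy3 signal after loess and mostly above it with median centring, and *CCT6A* and *CCT7* had the lowest ratios under both. Only 1 of the 22 probes passed the test, a *CCT6A* probe, at an adjusted p under 0.05 in limma. Over all 32606 probes tested, 1.35% were called lower in Cy5 and 3.31% were called in either direction. The study had required a fold change of 1.3 or more and p of 0.05 or less in a t test without adjustment. With limma's unadjusted p in place of that test, which is how the criterion is used below, 4 of the 22 probes passed, all lower in Cy5 and all in *CCT6A* or *CCT7*, beside 6.48% of all probes tested in that direction. With the methods' t-test 3 of the 22 passed. The mean log2 ratio of the 22 probes lay between -0.66 and 0.00, with a median of -0.20.

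**Figure D1:**
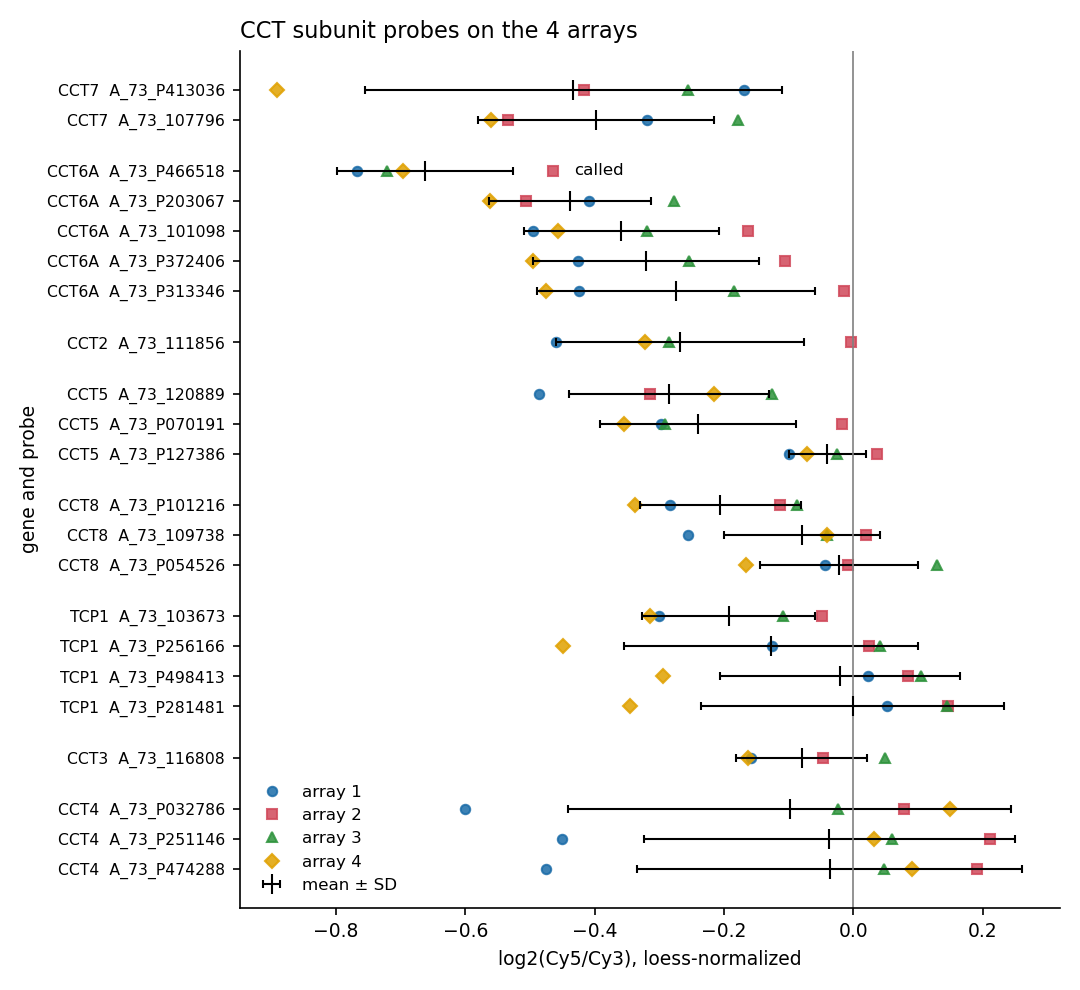
Log2(Cy5/Cy3) of the 22 CCT probes (rows, grouped by gene) on each of the 4 arrays (coloured symbols), after loess normalization, with the mean and SD over arrays in black. The probes of *CCT6A* and *CCT7* lie to the left of 0 on every array, and the 3 *CCT4* probes are far to the left on array 1 alone; with median centring 20 of the 22 means move above 0.

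The subunit *CCT6A* encodes the zeta subunit. Its called probe, A_73_P466518, had log2 ratios of -0.77, -0.46, -0.72 and -0.70 on arrays 1 to 4. The mean was -0.66 ± 0.14 (SD, n = 4), a 1.58-fold lower signal in Cy5 with an adjusted p of 0.0315 in limma. The log2 levels of this probe in the 4 Cy5 bulls were 9.32, 9.59, 9.29 and 9.32, and in the 4 Cy3 bulls 10.09, 10.05, 10.01 and 10.02. Every Cy5 bull was thus below every Cy3 bull, and the Cy3 bulls lay closer together (SD 0.04) than the Cy5 bulls (SD 0.14), of which the bull on array 2 stood highest.

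The other *CCT6A* probes had the same sign at smaller sizes. Probe A_73_P203067 was at -0.41, -0.51, -0.28 and -0.56, with a mean of -0.44 ± 0.12 (SD, n = 4), 1.35-fold and an adjusted p of 0.0528 in limma, and it passed the study's criterion. Probe A_73_101098 was at -0.50, -0.16, -0.32 and -0.46 with an adjusted p of 0.0802 in limma. The remaining probes, A_73_P372406 and A_73_P313346, had means of -0.32 ± 0.18 and -0.27 ± 0.21 (SD, n = 4). All 5 probes were below 0 on all 4 arrays, yet their means ranged from -0.66 to -0.27. The probes share 1 transcript and the same RNA, so that they are not replicates of each other.

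Averaged over its 5 probes on each array, *CCT6A* was at -0.50, -0.25, -0.35 and -0.54. The mean was -0.41 ± 0.13 (SD, n = 4), a 1.33-fold lower signal in Cy5. When each gene was tested at the mean of its probes, a fit chosen after the values were seen, *CCT6A* was the only one of the 8 subunits called, with an adjusted p of 0.0494 in limma, beside 2.25% of 9425 genes called lower in Cy5. That call was lost without any 1 of the arrays, with adjusted p of 0.105 to 0.133 in limma. The call of probe A_73_P466518 was lost in the same way, at adjusted p of 0.0660 to 0.102, while its log2 ratio stayed between -0.73 and -0.63. Calls over all probes tested fell too, from 1078 with 4 arrays to 115, 38, 5 and 5 without arrays 1 to 4. With median centring in place of loess probe A_73_P466518 was at -0.09 with an adjusted p of 0.673 in limma, and the gene mean was 0.13.

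The eta subunit is encoded by *CCT7*. Its brighter probe, A_73_107796, was at -0.32, -0.53, -0.18 and -0.56 on arrays 1 to 4, with a mean of -0.40 ± 0.18 (SD, n = 4) and an adjusted p of 0.0756 in limma. Its other probe, A_73_P413036, was at -0.17, -0.42, -0.26 and -0.89, with a mean of -0.43 ± 0.32 (SD, n = 4) and an adjusted p of 0.123 in limma. Neither was called, and both passed the study's criterion with limma's p, but A_73_P413036 did not pass it with the methods' t-test. Both were below 0 on all 4 arrays with the lowest value on array 4, and their agreement in the mean was closer than that among the *CCT6A* probes. In the 4 Cy5 bulls the levels of A_73_P413036 were 9.77, 9.43, 9.54 and 9.27 and in the 4 Cy3 bulls 9.94, 9.84, 9.79 and 10.16, so that the groups did not overlap, whereas those of A_73_107796 did. Over both probes the gene was at -0.24, -0.48, -0.22 and -0.73, a mean of -0.42 ± 0.24 (SD, n = 4). With median centring the probes were at 0.36 and 0.13.

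The beta subunit gene *CCT2*, whose product is also known as a receptor for protein aggregates in autophagy, had 1 probe. It was at -0.46, 0.00, -0.29 and -0.32, with a mean of -0.27 ± 0.19 (SD, n = 4) and an adjusted p of 0.168 in limma. The Cy5 bulls were at 11.34, 11.35, 11.34 and 11.28 and the Cy3 bulls at 11.80, 11.35, 11.63 and 11.60, so that the groups did not overlap but nearly touched at array 2.

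The epsilon subunit gene *CCT5* had 3 probes with means of -0.29 ± 0.15, -0.24 ± 0.15 and -0.04 ± 0.06 (SD, n = 4), and none was called. The gene mean was -0.29, -0.10, -0.15 and -0.21 on the 4 arrays, or -0.19 ± 0.08 (SD, n = 4), the smallest spread over arrays of any of the 8 genes. Of the subunits it was the closest to the mean of the complex, with a root mean square difference of 0.048 over the 4 arrays.

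The theta subunit gene *CCT8* had 3 probes with means of -0.21 to -0.02, and its gene mean was -0.19, -0.03, 0.00 and -0.18. The gamma subunit gene *CCT3*, with 1 probe, was at -0.16, -0.05, 0.05 and -0.16. The alpha subunit gene *TCP1*, after which the complex is named, had 4 probes with means of -0.19 to 0.00 and a gene mean of -0.09, 0.05, 0.05 and -0.35. These subunits had means of -0.10 ± 0.10, -0.08 ± 0.10 and -0.09 ± 0.19 (SD, n = 4), about as large as their spread over arrays or smaller. At the mean of their probes their adjusted p was 0.436, 0.550 and 0.615 in limma. All 4 probes of *TCP1* had their lowest value on array 4, and without that array the gene was at 0.00.

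The delta subunit gene *CCT4* varied most between arrays. Its 3 probes were at -0.60, -0.45 and -0.47 on array 1 and between -0.02 and 0.21 on the other arrays. The Cy5 bull of array 1 had levels of 11.80, 10.30 and 10.29 at these probes, against 12.25 to 12.29, 10.87 to 10.93 and 10.81 to 10.93 in the other Cy5 bulls. The 3 probes thus agreed that 1 bull stood apart. The gene mean was -0.51, 0.16, 0.03 and 0.09, which gave -0.06 ± 0.31 (SD, n = 4), and without array 1 it was 0.09.

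**Figure D2:**
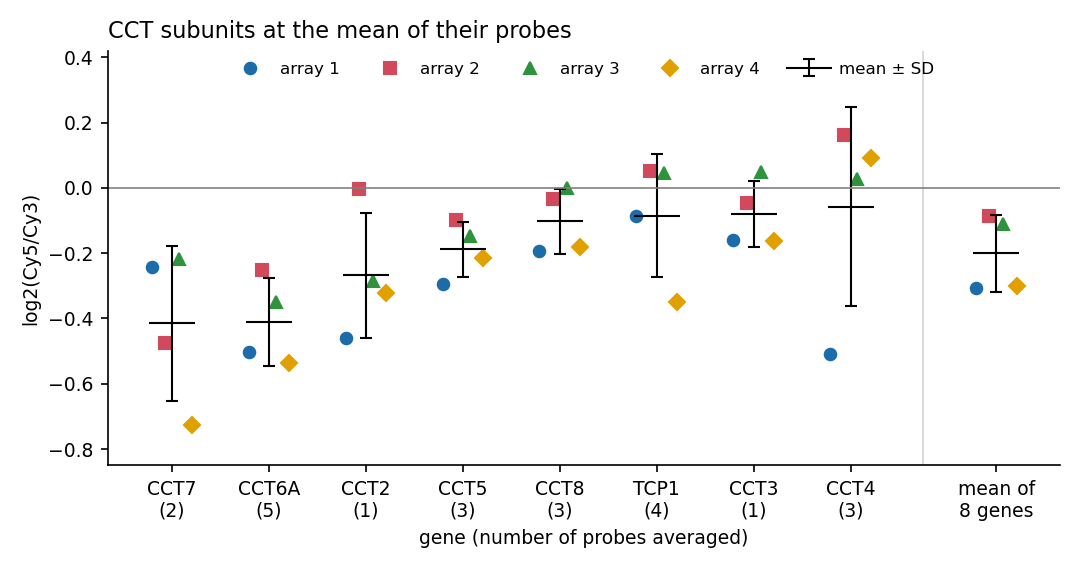
Log2(Cy5/Cy3) of the 8 CCT genes, each at the mean of its probes, and the mean over the 8 genes at the right, on 4 arrays (symbols) with mean and SD (black). *CCT7* and *CCT6A* have the lowest means at -0.42 and -0.41 and *CCT4* the widest spread; with median centring all 8 means lie above 0, with *CCT6A* and *CCT7* still the lowest.

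Set in order, the gene means ran from *CCT7* (-0.42) and *CCT6A* (-0.41) over *CCT2* (-0.27), *CCT5* (-0.19), *CCT8* (-0.10), *TCP1* (-0.09) and *CCT3* (-0.08) to *CCT4* (-0.06). Neighbours in that order were compared within arrays. *CCT6A* was below *CCT2* on 4 of 4 arrays, at -0.04, -0.25, -0.07 and -0.22, a difference of -0.14 ± 0.10 (SD, n = 4), and *CCT5* was below *CCT8* on 4 of 4 arrays, a difference of -0.09 ± 0.05 (SD, n = 4). For the other neighbours the difference was smaller than its SD over arrays. The gene means had an SD of 0.15 among the 8 genes, while probes of 1 gene had a mean SD of 0.09 over the 6 genes with several probes. Subunits thus differed among themselves somewhat more than probes of 1 subunit did on average, which was not tested. For *CCT6A* this did not hold, as its probe means, at -0.66 to -0.27, ranged about as widely as the gene means. The 2 *CCT7* probes were close together, at -0.43 and -0.40.

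The distance of *CCT6A* from the other subunits varied little between arrays. Its ratio minus the mean of the other 7 genes was -0.23, -0.19, -0.28 and -0.27, a difference of -0.24 ± 0.04 (SD, n = 4). For *CCT7* the same difference was 0.07, -0.44, -0.12 and -0.49, so that on array 1 it was above the others. Counted from the lowest, *CCT6A* was at rank 2, 2, 1 and 2 of 8 on the 4 arrays and *CCT7* at rank 5, 1, 3 and 1, whereas *CCT4* went from rank 1 on array 1 to 8, 6 and 8. Over the 9 processing settings that gave different gene means, 4 of which left out an array, *CCT6A* and *CCT7* took the lowest ranks of the 8 genes, with *CCT6A* lowest in 6 of them. These 2 genes were singled out after their values were seen, and no test was made of their distance from the rest.

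The mean over the 8 genes was -0.31, -0.09, -0.11 and -0.30 on the 4 arrays, or -0.20 ± 0.12 (SD, n = 4), and 0.43 with median centring in place of loess. It was below 0 on every array after loess. Without *CCT6A* and *CCT7* the mean of the other 6 genes was -0.28, 0.00, -0.05 and -0.19, or -0.13 ± 0.13 (SD, n = 4), which was no larger than its spread. Arrays 1 and 4 had the lower values of the complex in both forms. On array 1 the lowest genes were *CCT4* at -0.51 and *CCT6A* at -0.50, and on array 4 *CCT7* at -0.73 and *CCT6A* at -0.54.

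In the separate bulls the complex was measured by the level of each probe relative to its mean over the 8 bulls. The mean over the 8 genes was -0.13, -0.01, -0.05 and -0.21 in the Cy5 bulls of arrays 1 to 4, and 0.18, 0.08, 0.05 and 0.09 in the Cy3 bulls. The groups did not overlap for the complex after loess. They did not overlap for *CCT6A* either, with -0.29 to 0.00 in Cy5 and 0.06 to 0.27 in Cy3. For *CCT2* they nearly touched without overlap, at -0.18 to -0.11 and -0.11 to 0.34. For *CCT7* they did overlap, at -0.42 to 0.06 and -0.01 to 0.31. How many of all genes do not overlap at the mean of their probes was not counted. Of single probes, 5 of 22 had every Cy5 bull below every Cy3 bull, 3 of *CCT6A*, 1 of *CCT7* and that of *CCT2*, beside 6.51% of all probes with a level in every bull. None of the 22 had the opposite order, which 7.68% of all such probes had.

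**Figure D3:**
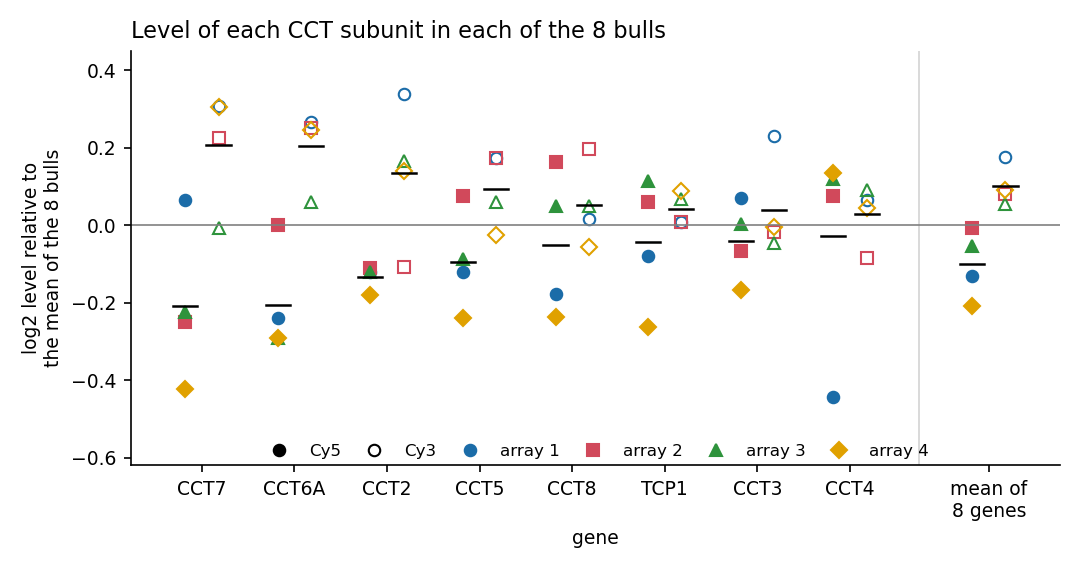
Log2 level of each CCT gene in each of the 8 bulls, relative to the mean of the 8 bulls, with Cy5 bulls as filled and Cy3 bulls as open symbols, arrays by colour and shape, and group means as black lines. For *CCT6A*, and narrowly for *CCT2*, every filled symbol lies below every open one. The filled circle of *CCT4* is the Cy5 bull of array 1 at -0.44. Levels are after loess, and with median centring the mean ratio of all 8 genes lies above 0.

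The sign of the family depended on how the arrays were scaled. After loess, all 22 probe means were below 0, beside 47.6% of all probes tested. On all 4 arrays 12 of 22 probes, of 6 genes, were below 0, beside 14.5%. With median centring alone, 20 of the 22 means were above 0. Under that scaling 10 CCT probes were called, all higher in Cy5, beside 10724 calls in either direction over all 32606 probes tested. Median centring left a trend with signal. It moved the median of all tested probes from 0.01 to 0.24 and the median of the 16838 probes as bright as the CCT probes from 0.01 to 0.52, against a move of the CCT median from -0.20 to 0.46. Each CCT probe was also set against the tested probes within 0.25 log2 of its own signal, a comparison added after the values were seen. All 22 were below the median of those probes, by a median of 0.18. This subtraction removes the trend with signal as loess does, so that it gave nearly the same distances from either scaling and is no separate check of the sign. The called *CCT6A* probe lay 0.67 below the median of the probes of like signal, and 3.75% of them were lower than it. For *CCT7* probe A_73_P413036 the distance was 0.45, with 9.28% lower, while the 4 *TCP1* probes were 0.01 to 0.18 below.

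**Figure D4:**
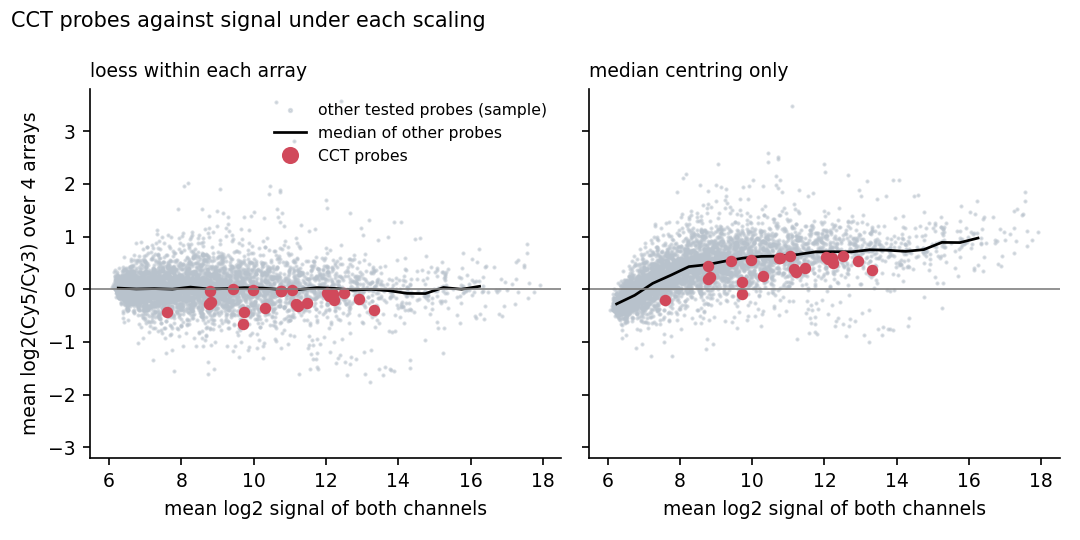
Mean log2(Cy5/Cy3) over 4 arrays against the mean log2 signal of both channels, after loess (left) and after median centring alone (right), for the 22 CCT probes (red) and a random sample of other tested probes (grey), with the median of the grey points in bins of signal (black line). The red points turn from below 0 to mostly above 0 between the panels, and in both they lie at or under the black line, which follows the trend with signal that loess removes.

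Leaving out arrays also touched the count of negative means. Without array 1 or without array 4, 19 of the 22 means and 7 of the 8 genes were below 0, and without array 2 or 3 all of them were. The genes that crossed 0 were *CCT4* without array 1 and *TCP1* without array 4.

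The genes that work with CCT were taken from 10 lists and represented by their brightest probe. Over all 71 genes of these lists, limma called 2 lower and 1 higher in Cy5, beside 1.52% and 2.91% of all 9425 genes, whose median log2 ratio was 0.02. Medians of the lists below are after loess, and with median centring all 10 lay above 0, at 0.17 to 0.76. At their brightest probe none of the 8 CCT genes was called, only *CCT7* passed the study's criterion, beside 7.18% of all genes in that direction, and the median was -0.22. The called *CCT6A* probe is not the brightest of its gene. At an unadjusted p under 0.05 in limma, which 11.3% of all genes passed as lower and 17.0% as higher, 5 of the 8 were lower and 0 higher. The same shares stand behind the counts of the lists that follow.

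Cofactors that deliver or release CCT clients had no call in limma. The prefoldin subunits, which hand unfolded actin and tubulin to CCT, had a median of -0.24, and 3 of 6 were lower at an unadjusted p under 0.05. Of these, *PFDN4* was at -0.45 ± 0.37 and *PFDN5* at -0.75 ± 0.75 (SD, n = 4), with spreads as large as the means or nearly so, and the other *PFDN5* probe was at -0.02. Of the phosducin-like cofactors, which bind the rim of CCT, 3 of 4 were tested and 1 was lower at an unadjusted p under 0.05. This was *PDCL3* at -1.23, -0.41, -1.63 and -0.78, a mean of -1.01 ± 0.53 (SD, n = 4) and an adjusted p of 0.0560 in limma.

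Among other chaperonins, 4 of 7 genes were tested and none was called. All 4 were below 0, beside 4306 of all 9425 genes tested, and the median was -0.26. The mitochondrial pair *HSPE1* and *HSPD1* was at -0.40 ± 0.13 and -0.19 ± 0.12 (SD, n = 4), and *HSPE1* came nearest to a call, with an adjusted p of 0.0606 in limma and 4 of 4 arrays below 0. The paralogue *CCT6B*, known as the testis form of the zeta subunit, was at -0.29 ± 0.28 (SD, n = 4). It has a probe of its own, and how far probes of *CCT6A* and *CCT6B* share sequence was not analysed here.

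The clients showed no common direction. The 8 actin and actin-related genes had a median of -0.12 with 0 calls at the brightest probe and 1 at an unadjusted p under 0.05, higher in Cy5, and muscle actin *ACTA1* was at 0.27, 1.04, -1.11 and 0.33, a spread wider than any CCT gene had. The cytoplasmic actin *ACTG1* was at -0.47 ± 0.91 (SD, n = 4) at its brightest probe, but 5 of its 6 probes were called, with means up to 0.69, so that its probes disagreed. Of 13 tubulins tested none was called, 2 were higher and 3 lower at an unadjusted p under 0.05, and the median was -0.09. They included *TUBB6* at 0.65 ± 0.41, *TUBA8* at -0.52 ± 0.31 and *TUBA4A* at -0.62 ± 0.46 (SD, n = 4).

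The tubulin cofactors, which assemble the dimer after folding on CCT, had the highest median of the lists, 0.27 over 6 genes, with none called and 1 higher at an unadjusted p under 0.05. That gene was *TBCA*, which takes up beta-tubulin, at 0.45, 0.32, 0.57 and 0.32 and an adjusted p of 0.0558 in limma. Among 14 beta-propeller and other clients the median was 0.05 and only *BBS2*, a subunit of the BBSome of cilia, was called, with a mean of 0.64 ± 0.26 (SD, n = 4) and a limma adjusted p of 0.0495.

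The Hsp70 and Hsp90 chaperones and partners that act before CCT held the calls that were lower in Cy5. Of 13 genes, 12 were below 0, beside 4306 of all 9425 genes tested, and the median was -0.26. In limma 2 were called, and 5 were lower and 0 higher at an unadjusted p under 0.05. The constitutive Hsp70 gene *HSPA8*, whose product passes clients to CCT, was at -0.89, -0.84, -0.65 and -0.48, a mean of -0.71 ± 0.19 (SD, n = 4) with an adjusted p of 0.0332 in limma, and all 6 of its probes were called. The nucleotide exchange factor *HSPH1* had a mean of -1.01 ± 0.48 (SD, n = 4) and a limma adjusted p of 0.0499. Its array 4 value, -0.31, was far above those of arrays 1 to 3. Without any 1 of the arrays none of the genes in the 10 lists was called in limma, with 17 to 22 at an unadjusted p under 0.05. Over all probes tested 5 to 115 calls were left then, against 1078 with all arrays. With median centring 36 of the list genes were called, 35 of them higher in Cy5, beside 10724 calls over all probes tested. Of the genes for myosin folding 3 were tested and of the heat shock factors 2, with 0 called and 0 at an unadjusted p under 0.05.

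**Figure D5:**
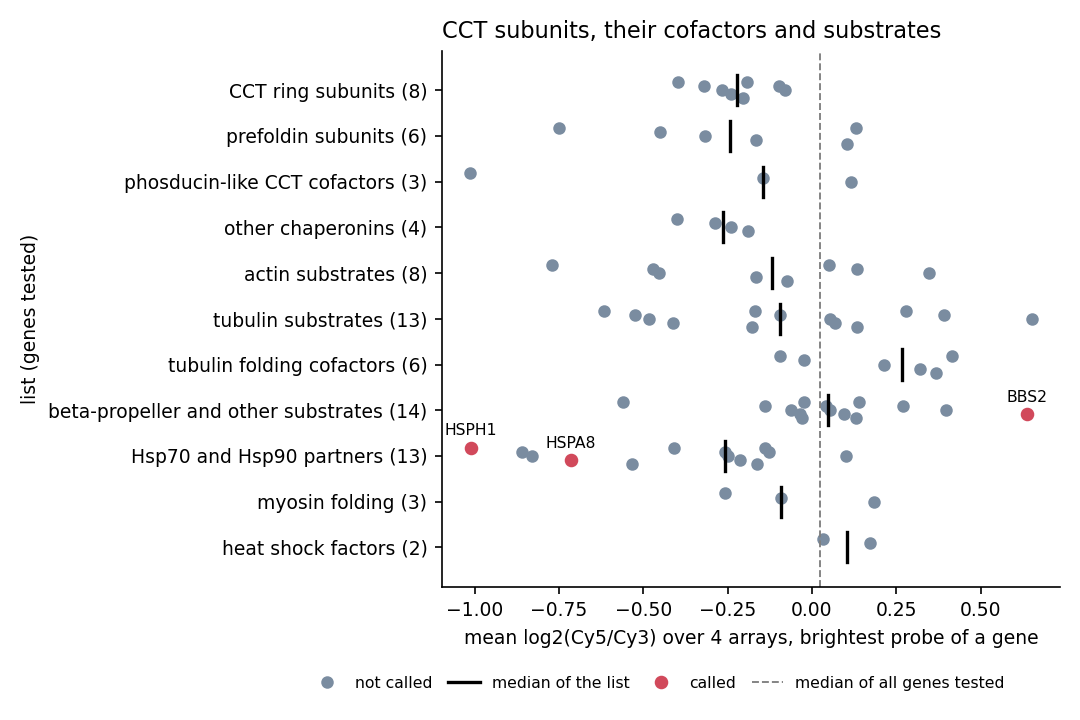
Mean log2(Cy5/Cy3) over 4 arrays of the genes that work with CCT (points, brightest probe of each gene, red where called by limma), by list, with the median of each list (black bar) and of all genes tested (dashed line at 0.02). The CCT, prefoldin, other chaperonin and Hsp70 and Hsp90 lists have medians of -0.22 to -0.26 and the tubulin cofactors 0.27; with median centring the medians of the 10 lists beside the CCT are 0.17 to 0.76.

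The genes most like the complex in their pattern over the 4 arrays were *CRX*, *LIX1*, *NMD3*, *WDR46* and *IRAK1*, of 9410 genes outside the CCT. Their root mean square differences from the mean of the complex were 0.045 to 0.058, with 4 values compared for each gene. For the subunits themselves this difference ran from 0.048 for *CCT5* to 0.29 for *CCT7*. The 5 genes were chosen for this likeness, so the lower range is set by the choice. *LIX1* and *IRAK1*, at mean log2 signals of 6.29 and 6.68, were dimmer than any CCT probe. *CRX* was at 7.59, like the dimmest CCT probe, and *NMD3* and *WDR46* were at 10.03 and 9.07.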

How the data were processed

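RNA of 4 HER and 4 HF bulls had been hybridised to 4 dual-colour arrays. The deposited intensity values are those of Agilent Feature Extraction 10.7.3.1. Per the file headers they hold a median signal and a local background for every spot, and processed signals made from them. The deposited log10 ratios of the series table equalled the scanner's own Cy5 over Cy3 ratios and had a median of 0 on all arrays. The authors used GeneSpring, with a normalization not given in the sources used here.

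Here the median signals were corrected for background by normexp (offset 50) and normalized within arrays by loess, control and outlier-marked spots having weight 0, and replicate spots were averaged. A probe was tested if either channel stood well above background on every array and 3 or more arrays had a value, as held for 32606 of 43653 probes. limma 3.58.1 (lmFit, eBayes, two-sided) in R 4.3.3, with statmod 1.5.0, tested the log2 ratios against 0, with Benjamini-Hochberg adjustment over all probes tested and calls at an adjusted p under 0.05. Levels of single bulls came from the same arrays after quantile scaling of the average signal (Aquantile). The scripts were tested on simulated data. With 4 arrays, it is their number that limits precision. The labels name them biological replicates.

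A RefSeq table gave 23492 probes a symbol through their reference accession, with 9425 genes tested. Its build differs from that of the array's annotation (Btau_3.1), so no coordinates are given, and probe sequences were not used here. The subunits, the lists and the rule for named genes were chosen with earlier results of these data known. The rule covered all CCT probes, of each list the called genes or up to 4 with the smallest p, and the 5 genes most like the mean of the complex.

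The CCT counts were recomputed with other background corrections, with the deposited ratios, with median centring in place of loess, with other filters on dim probes, with other fits (a trend and robust prior, separate channels, the methods' t-test) and without each array. The gene means were not refitted with the other fits. The related lists were recomputed with median centring, at the mean over probes and without each array, and the counts of groups that do not overlap were not recomputed. The fit on gene means and the comparison with probes of like signal were added after the data were seen.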

Additional observations from a re-analysis of the deposited data

Results flagged for a closer look

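In 6 of 75 groups of 4 values, of which chance marks about 1 in 20, the highest or lowest bull stood apart, its gap to the next, as a share of the group's range, being over Dixon's critical value. Among Cy5 bulls, that of array 1 was low at *CCT4* probes A_73_P032786 (0.917 of the range) and A_73_P251146 (0.898). The Cy5 bull of array 2 was high at *CCT6A* probe A_73_P466518 (0.883), and that of array 4 was low at the *CCT2* probe (0.867), within a range of 0.07 on the log2 scale. Among Cy3 bulls, that of array 3 was high at *TCP1* probe A_73_P498413 (0.847), and that of array 1 was high at the *CCT3* probe (0.854).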

How the results depend on the processing

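Of the 22 CCT probes limma called 1. The count was 2 without background correction, with plain subtraction, with scanner-processed signals, with the series table and with an intensity trend and robust prior, 3 in the separate-channel fit and 10, all higher in Cy5, with median centring. In each case but the last the calls were lower in Cy5. Calls over all probes were 1078 in the main fit and 1391 to 1666 where the CCT count was 2. They were 3199 in the separate-channel fit and 10724 with median centring. The methods' t-test called 0 after adjustment, also over all probes, with 7 CCT probes at an unadjusted p under 0.05. Without each array in turn limma called 0 to 0 CCT probes, with 5 to 8 at an unadjusted p under 0.05, beside 5 to 115 calls over all probes. The study's criterion with limma's p gave 4, 3 with the methods' t-test, 5 with plain subtraction, 6 with scanner-processed signals and with the series table, 12 (all higher) with median centring and 2 to 4 without each array, the 2 being without array 4. Of the 8 genes at the mean of their probes 1 was called, 0 with plain subtraction, scanner-processed signals, the series table or a stricter filter and 0 to 0 without each array (2 to 3 at an unadjusted p under 0.05), and 4, all higher, with median centring. The mean of the complex was -0.20, 0.43 with median centring and -0.24 to -0.17 without each array. With median centring the *CCT7* probes were at 0.36 (A_73_107796) and 0.13 (A_73_P413036), and the called *CCT6A* probe at -0.09. *CCT6A* probe A_73_P203067 was called under 6 alternatives, among which the scanner-processed signals and the series table hold the same ratios. Of the 71 related genes 3 were called, 36 with median centring, 6 at the mean over probes and 0 to 0 without each array. The test of the ratios within arrays already pairs the bulls that share an array, and no block was added to it. The causes were not tested.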
